A study of Mus musculus with 6 samples.

Results

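Hsd3b1, Hsd3b6 and Hsd17b3 encode dehydrogenases of androgen synthesis, and all 3 genes were found by exact symbol among the 10580 genes of the table deposited for fetal and adult mouse Leydig cells. Fetal Leydig cells (FLCs) came from embryos at E18.5 and adult Leydig cells (ALCs) from mice aged 100 days (P100), all XY and heterozygous for a Tg(Nr5a1-GFP) transgene, with FLCs collected from CD-1 females mated with transgenic males. RNA was sequenced from 3 libraries of FLCs and 3 of ALCs. The cells were sorted for strong green fluorescence driven by Nr5a1, a gene that Sertoli cells also express at a lower level, and FLCs of several sorting experiments were pooled to reach the RNA needed. The level used here is the authors' mean of normalized counts, that is, counts per gene divided by size factors and averaged over all 6 libraries, so 1 value stands for both stages and carries no SD. The question behind the study is how FLCs and ALCs differ, but no stage is compared with the other here, because the table holds that contrast only as the authors' own fold changes and p-values. Neither the spread between libraries nor the depth of a single library is known from this mean, so no difference between genes given here has a test. A gene is listed only where its adjusted p in the authors' contrast of the stages was under 0.05. A gene outside the list may therefore still be abundant, and the counts of listed genes below describe neither detection nor level. The share of all tested genes that are listed was not computed here.

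Leydig cells make androgens from cholesterol. 3-beta-hydroxysteroid dehydrogenases, the products of the Hsd3b genes, turn pregnenolone and dehydroepiandrosterone into progesterone and androstenedione. The product of Hsd17b3, 17-beta-hydroxysteroid dehydrogenase type 3, then reduces androstenedione to testosterone, and in the fetal mouse testis this last step is known to take place in Sertoli cells. The mouse genome holds a cluster of closely similar Hsd3b genes, so the letters of their transcripts bear on what a read count for any one of them can mean.

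In GENCODE vM21 on GRCm38, Hsd3b1 (ENSMUSG00000027871.16) lies on the minus strand of chromosome 3 from 98852194 to 98859794, and Hsd3b6 (ENSMUSG00000027869.14) on the same strand from 98805504 to 98814443, 37.75 kb away from it. Hsd17b3 (ENSMUSG00000033122.14) lies on the minus strand of chromosome 13 from 64058266 to 64089230. All 3 are protein-coding genes, and 0 other annotated genes overlap their spans on either strand.

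The coding sequences of Hsd3b1 and Hsd3b6 have 1119 bases each and were identical at 1007 of them (89.99%). A read that lies wholly within a stretch without a difference, taken without its mate, fits both genes equally well. The longest such stretch that lies in 1 exon of both genes is shown first. It covers coding bases 755 to 818, counted from 1 at the first base of the start codon, which are chr3:98852856-98852919 in Hsd3b1 and chr3:98806164-98806227 in Hsd3b6 on GRCm38, minus strand. Both genes read, 5′ to 3′:
Hsd3b1: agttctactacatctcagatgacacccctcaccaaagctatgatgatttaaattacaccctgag
Hsd3b6: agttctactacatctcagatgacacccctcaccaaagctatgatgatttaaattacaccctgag

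The least alike 50 bases that lie in 1 exon of both genes are shown next, because a read from there tells the genes apart. They are coding bases 53 to 102, at chr3:98857863-98857912 in Hsd3b1 and chr3:98810945-98810994 in Hsd3b6, and the capitals mark the 11 bases that differ:
Hsd3b1: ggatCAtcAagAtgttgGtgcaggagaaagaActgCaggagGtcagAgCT
Hsd3b6: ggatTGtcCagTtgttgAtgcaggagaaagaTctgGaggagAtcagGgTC

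Hsd3b6 is closer to Hsd3b2 and Hsd3b3 than to Hsd3b1. Its coding sequence was identical to that of Hsd3b3 at 94.46% of bases and to that of Hsd3b2 at 94.37%.

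Reads had 50 bases, sequenced in pairs. Of the 1851 different 50-base windows in the annotated transcripts of Hsd3b1, 90 (4.86%) occur unchanged in a transcript of another gene. Most of them, 50, occur in the annotated gene Gm12431, and 38 in Hsd3b6. Of the 1801 windows of Hsd3b6, 281 (15.6%) do, with 237 in Hsd3b2, 220 in Hsd3b3 and the same 38 in Hsd3b1. Hsd17b3 shares none of its 1437 windows with any other annotated gene. With up to 2 mismatches allowed, and transcripts of the Hsd3b and Hsd17b genes alone compared, the share was 16.75% for Hsd3b1, 49.4% for Hsd3b6 and 0% for Hsd17b3. A share of windows is not a share of reads, and a window stands for a single read without its mate. How the authors' counting treated reads that fit several genes is not given in the sources used here. The levels of Hsd3b1 and Hsd3b6 are therefore uncertain by an amount not known here.

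**Figure D1:**
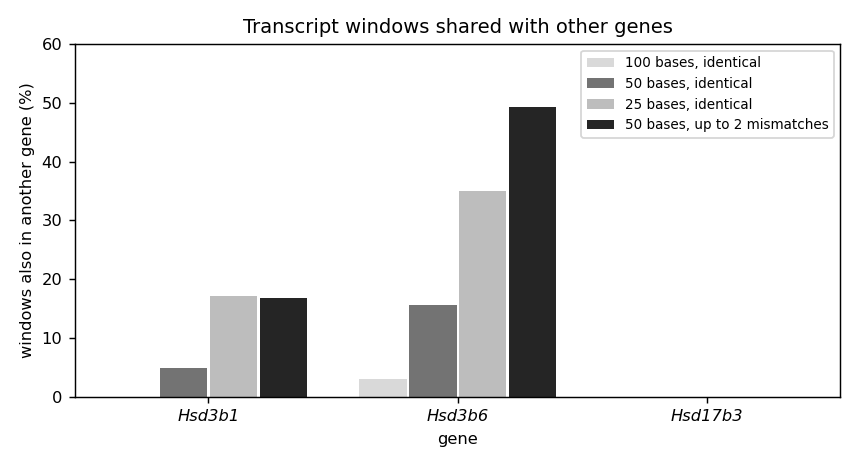
Bars give the percent of transcript windows (y axis) of Hsd3b1, Hsd3b6 and Hsd17b3 (x axis) that also occur in transcripts of another gene, for identical windows of 100, 50 and 25 bases and for windows of 50 bases with up to 2 mismatches. Identical windows were looked for in all annotated transcripts, windows with mismatches only in those of the Hsd3b and Hsd17b genes. Hsd3b6 has the tallest bar in each setting, 15.6% for identical windows of 50 bases, and Hsd17b3 has 0% throughout.

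Along the coding sequence the likeness of Hsd3b1 and Hsd3b6 is uneven. Among 1070 overlapping windows of 50 coding bases, identity had a median of 90% and ran from 76% to 100%. In 38 windows (3.55%) the genes did not differ at all, and 235 windows held at most 2 differences. The coding sequence of Hsd3b1 was 89.28% identical to that of Hsd3b2 and of Hsd3b3, 82.66% to that of Hsd3b4 and 81.95% to that of Hsd3b5. Hsd3b7, a bile acid synthesis enzyme encoded on another chromosome, was 53.23% identical to it.

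**Figure D2:**
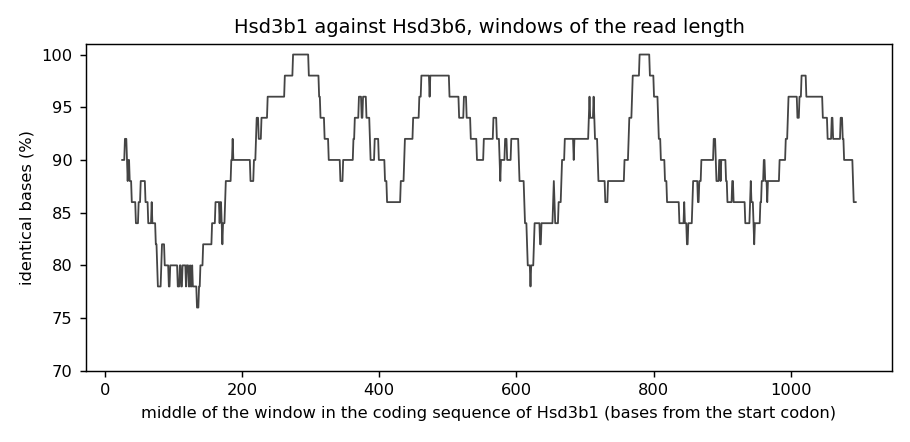
The line gives the percent of identical bases between Hsd3b1 and Hsd3b6 (y axis, which does not start at 0) in windows of 50 bases along the coding sequence of Hsd3b1 (x axis, bases from the start codon). It touches 100% in 2 places and falls to 76% at its lowest.

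Hsd3b1 was among the most abundant transcripts of the table. The authors' mean over all libraries was 165076 normalized counts, 243 times the median of the listed genes (679). Divided by the 1855 bases of its annotated exons, that is 88989.9 normalized counts per kb, rank 3 among the 10502 listed genes with an annotated length (rank 5 by the length of the longest transcript). It alone took 0.743% of the sum of the authors' means over all listed genes. Insl3, the Leydig cell hormone of testis descent, and Cyp17a1, the enzyme upstream of the androgens, were the only such genes above it when lengths were taken from all annotated exons.

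Hsd3b6 had an authors' mean of 32837 normalized counts, 48.4 times the median of the listed genes. Its exons cover 1802 bases, which gives 18222 normalized counts per kb and rank 29. Hsd3b6 took 0.148% of the sum over all listed genes. Per kb, the pooled level of Hsd3b1 was 4.88 times that of Hsd3b6, a ratio of means over both stages that need not hold in either of them.

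Hsd17b3 had an authors' mean of 18581 normalized counts, 27.4 times the median of the listed genes. Over 1391 bases of exon this is 13358 normalized counts per kb, rank 45 among the genes with a length. Its share of the sum was 0.0836%. The pooled level per kb of Hsd17b3 was below those of Hsd3b1, at 6.66 times its value, and Hsd3b6, at 1.36 times. Together the 3 genes took 0.974% of the sum of the authors' means. Without division by length, Hsd3b1 took rank 7, Hsd3b6 rank 58 and Hsd17b3 rank 124 among all listed genes, a place that also reflects the length of each transcript.

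A mean over both stages sets a limit to each of them. Normalized counts are never negative and each stage gave 3 of the 6 libraries, so the mean of either stage can be at most 2 times the mean over all libraries, and at least 1 stage lies at or above it. For Hsd3b6 that limit is 36445 normalized counts per kb, and for Hsd17b3 26717. Both lie below the pooled 88989.9 of Hsd3b1. In the stage where Hsd3b1 was at or above its pooled level, whichever this is, 2 bounds follow for its mean per kb of exon. This mean was at least 2.44 times that of Hsd3b6 and at least 3.33 times that of Hsd17b3. Both bounds hold for exon lengths and take the counts as given, with reads that fit several genes left aside. The pooled ratio of Hsd3b1 to Hsd17b3 was 6.66 by exon length, 6.16 by the longest transcript and 7.26 by coding length. The bound against Hsd17b3 moves with it. In the other stage the pooled means leave the order of Hsd3b1 and the other genes unknown. No such order follows for Hsd3b6 and Hsd17b3, since the limit of either lies above the pooled level of the other.

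**Figure D3:**
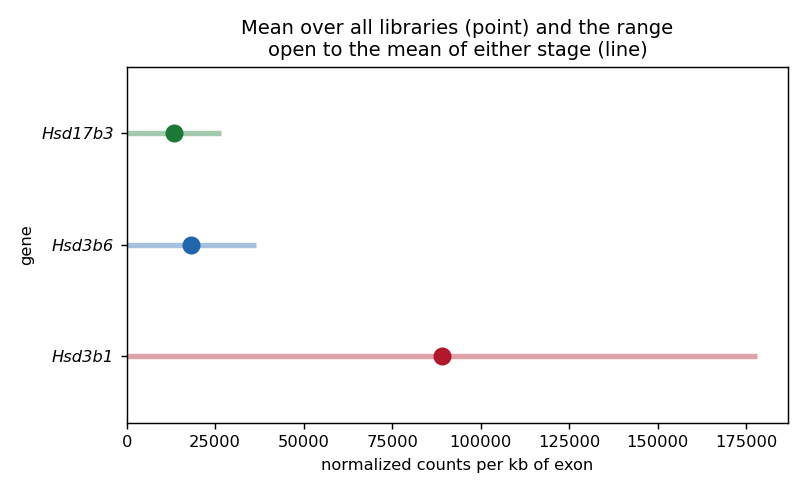
Points give the authors' mean over all libraries per kb of exon (x axis, normalized counts per kb) for each gene (y axis), and lines run from 0 to the largest mean that either stage could have. The lines of Hsd3b6 and Hsd17b3 end at 36445 and 26717, short of the point of Hsd3b1 at 88989.9.

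Among the genes of the steps from cholesterol to androgen, 10 of 11 passed the authors' contrast of the stages and are listed. This count was not set against the share of all tested genes. Among these 10 genes, Hsd3b1 took place 2 per kb, Hsd3b6 place 5 and Hsd17b3 place 6. Without division by length the places were 3, 5 and 8, and by coding length 2, 6 and 8. Cyp17a1, which makes the androgen precursors from progestins, had 102447 normalized counts per kb, and Hsd3b1 reached 0.869 times this level. Cyp11a1, the side-chain cleavage enzyme that makes pregnenolone, had 48124, and Hsd3b1 lay at 1.85 times this level. This ratio depends on the length used, with 1.01 by coding length and 0.714 without division by length, where Cyp11a1 is the higher. Star, which carries cholesterol into mitochondria, had 21275 per kb, close above the 18222 of Hsd3b6. This nearness depends on the length used, since Hsd3b6 was at 0.375 times the level of Star without division by length. The electron donors of the mitochondrial step had 8386 per kb for Fdxr and 4530.4 for Fdx1, below the 3 dehydrogenases by exon length. Against Hsd17b3 this order turned with the length used, since Hsd17b3 was at 0.814 times the level of Fdx1 by coding length and at 0.790 times that of Fdxr without division by length. Cyb5b and Cyb5a, cytochromes b5, had 5915 and 1265. The place of Cyb5b also depended on the length used, with place 8 per kb of exon. By coding length it took place 5, above Hsd3b6 and Hsd17b3, and without division by length place 6, above Hsd17b3.

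The other listed members of both families were lower than the 3 genes. Of the 9 Hsd3b genes looked for, 3 are listed, and the third, Hsd3b7, had 1114 normalized counts per kb. Of the 12 Hsd17b genes looked for, 7 are listed, and Hsd17b3 had the highest pooled level per kb. Next came Hsd17b12, an enzyme of fatty acid elongation, with 3231, and Hsd17b10, a mitochondrial dehydrogenase, with 2993. Hsd17b1, which makes estradiol from estrone in the ovary, had the lowest level of the 7 listed, 76.1 per kb. The genes of these families that are outside the list are not analysed here, and Hsd3b2 and Hsd3b3, whose transcripts share most windows with Hsd3b6, are among them.

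The listed genes among other steroid-converting enzymes, which act on androgens, progestins, estrogens or glucocorticoids, were lower per kb than the 3 genes as well. Of 14 genes looked for, 8 are listed, from 6.67 to 2318 normalized counts per kb. Sult1e1, the estrogen sulfotransferase, was the highest of them. Srd5a1, a steroid 5-alpha-reductase, had 434 per kb and Akr1c14, a 3-alpha-hydroxysteroid dehydrogenase, 295. All 8 lay below the 13358 of Hsd17b3.

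**Figure D4:**
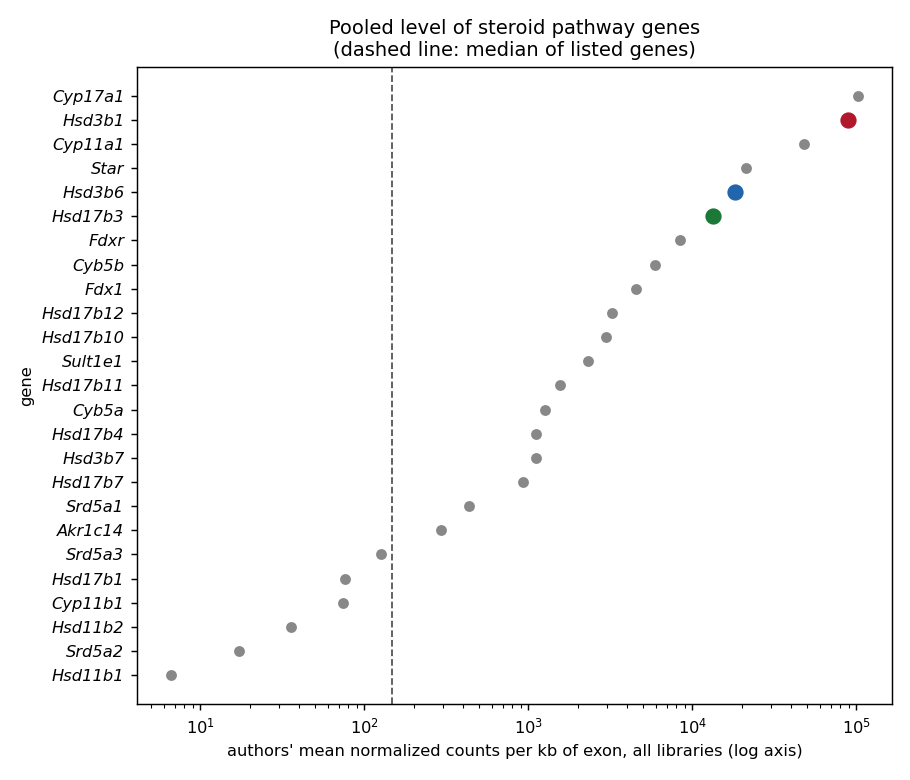
Points give the authors' mean normalized counts per kb of exon over all libraries (x axis, log scale) for the listed genes of the steroid pathway and the Hsd3b and Hsd17b families (y axis), with Hsd3b1 in red, Hsd3b6 in blue and Hsd17b3 in green. The 3 genes lie between 13358 and 88989.9, to the right of the dashed line at 147, the median of the listed genes.

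Of the genes that control steroidogenesis, 6 of 9 are listed. Nr5a1, the nuclear receptor whose regulatory sequence drives the transgene, had 23843 normalized counts per kb, between Hsd3b1 and Hsd3b6. The cells were sorted for strong fluorescence of this transgene, so the level of Nr5a1 is not independent of the sort. Gata4 had 3425 and Nr0b1, which encodes the repressor DAX1, 322. Both are transcription regulators of gonadal cells.

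The labelled cell type can be set against the marker panels of the study only for the markers that are listed. A listed marker is one that passed the authors' contrast of the stages, so the counts of listed markers are no check of cell type. All 5 Leydig cell markers, of which Hsd3b1 is one, are listed, from 21275 to 414861 normalized counts per kb. Among Sertoli cell markers, 2 of 3 are listed, Amh with 82.2 per kb and Dhh with 20.2. Listed were 2 of 3 interstitial progenitor markers (92.0 to 267 per kb), 1 of 3 germ cell markers (61.1), 1 of 3 endothelial markers (35.7), 3 of 3 immune markers (5.61 to 170) and 0 of 3 peritubular myoid markers. Markers outside the list have no value here and may be present in these cells. A pooled mean does not say in which libraries these markers were found, and their part in the levels of the 3 genes was not tested. In bulk RNA, fewer cells of a type and less RNA per cell cannot be told apart.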

How the data were processed

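Total RNA of sorted Nr5a1-GFP positive cells was sequenced in 3 FLC and 3 ALC libraries (paired reads of 50 bases). According to the methods and submitters' notes, the authors demultiplexed with CASAVA 1.8.2, mapped with GemTools, used an in-house pipeline to count reads per gene (GENCODE, GRCm38), dropped genes below 10 reads and ran DESeq2. The methods name a ribosomal depletion kit, while poly(A) RNA is named elsewhere. The deposited signal, a mean of normalized counts over all 6 libraries, was used. The other 5 columns hold the authors' log2 fold change, standard error, Wald statistic and p-values, which were not used, except to see that only genes with an adjusted p under 0.05 are listed, so ranks are among genes selected by that contrast. The fit of counts planned in case each library had them was not made.

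Levels were divided by the exon union of GENCODE vM21 (10205 genes matched by symbol, 297 by older symbol, 78 unmatched). The methods name a GENCODE version other than vM21, so gene lengths in the authors' annotation may differ. Windows and coding alignments used vM21 transcripts with Python 3.11.15 and Biopython 1.88, tested on simulated data. Coding alignments replaced the planned protein alignments. The members and lists were chosen with earlier results of these data known. Named are the 3 genes and, from each list, the 3 highest per kb, along with others of a known role chosen after their values were seen.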

Additional observations from a re-analysis of the deposited data

How the results depend on the processing

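Of 52 alternative values, 34 lay within 1.5 times the value given, among them the ranks by level under filters at a mean of 10 or 100 and among protein-coding genes. Another 15 lay farther and 3 turned an order between genes. Orders were counted for chosen pairs only. Cyb5b, in none of these pairs, also changed place against Hsd3b6 and Hsd17b3 with the length used. By coding length, levels per kb were 147521 for Hsd3b1, 29345 for Hsd3b6 and 20308 for Hsd17b3, in the same order, with ranks 5, 60 and 103, and by the longest transcript Hsd3b1 also took rank 5. The level of Hsd3b1 was 1.01 times that of Cyp11a1 by coding length and 0.714 times without division by length, a setting chosen after seeing the data. Hsd17b3 was at 0.814 times Fdx1 by coding length and 1.32 times without division by length, where it was at 0.790 times Fdxr. Shared windows of 25 bases were 17.1% for Hsd3b1 and 35.0% for Hsd3b6, those of 100 bases 0% and 3.11%. With up to 2 mismatches, a setting chosen after seeing the data, 50-base windows gave 16.75% and 49.4%. Transcripts of the Hsd3b and Hsd17b genes alone were compared there. No paired analysis was possible because the level is a mean over all libraries. For the same reason no library was left out, and no other normalization was run. The depth per library is unknown, so the counting error of the levels is not given.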
